A study of Mus musculus with 6 samples.

Results

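A set of 10 genes of the immune checkpoint and costimulation system, of 22180 genes measured, was followed in B16-F1 melanomas that had grown for 20 days in Stat2 KO hosts or in WT hosts. Members were given by symbol, and each was read from the brightest probe set annotated to it alone. Every one of the 10 had 1 such probe set. They comprised 3 ligands, Cd274, Pdcd1lg2 and Cd80, and 7 receptors carried by T cells, Pdcd1, Ctla4, Lag3, Havcr2, Tigit, Cd28 and Icos.

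B16-F1 is a pigmented mouse melanoma line that grows in C57BL6 mice, the strain background of both host groups. The groups were 3 tumours from Stat2 KO hosts and 3 tumours from WT hosts, each tumour on its own Affymetrix array. Both groups received the same B16-F1 cells, and the genotype is that of the host, since no label says that the implanted cells lack Stat2. The tumours are described as individual ones, with nothing on whether each had its own mouse or on how the deletion was made. All p-values therefore rest on the spread among 6 tumours, which may be partly technical. In these bulk tumours fewer cells of a type and less RNA per cell cannot be told apart.

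T cells need a signal through their antigen receptor and a costimulatory signal, which CD28 gives when it binds CD80 or CD86 on an antigen-presenting cell. CTLA-4 binds the same ligands and inhibits, whereas PD-1 inhibits after binding PD-L1, encoded by Cd274, or PD-L2, encoded by Pdcd1lg2. In melanoma the PD-1 and CTLA-4 receptors are the targets of checkpoint-blocking antibodies, and interferon is a known inducer of PD-L1 on tumour and myeloid cells.

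The promoters of 3 of these genes are shown because they stand for the contrast that follows, a ligand gene that is known to be induced by interferon and a pair of receptor genes whose tumour groups did not overlap. Sequences are from RefSeq, build GRCm38.p6, written 5′ to 3′ on the strand of the gene, in a window of 300 bases around its start. The capitals mark a match to GAAANNGAA, a core of the element bound by interferon regulatory factors, in Cd274 and Ctla4, and a match to TGANTCA, the core bound by AP-1, in Havcr2. The windows lie at chr19:29367188-29367487 on the plus strand for Cd274, chr1:60908775-60909074 on the plus strand for Ctla4 and chr11:46454681-46454980 on the plus strand for Havcr2.
Cd274: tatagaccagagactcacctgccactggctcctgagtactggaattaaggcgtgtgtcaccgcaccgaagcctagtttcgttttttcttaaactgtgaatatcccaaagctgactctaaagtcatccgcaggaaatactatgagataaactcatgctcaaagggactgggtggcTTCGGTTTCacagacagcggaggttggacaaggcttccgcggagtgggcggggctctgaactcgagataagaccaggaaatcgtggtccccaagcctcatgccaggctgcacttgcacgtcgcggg
Ctla4: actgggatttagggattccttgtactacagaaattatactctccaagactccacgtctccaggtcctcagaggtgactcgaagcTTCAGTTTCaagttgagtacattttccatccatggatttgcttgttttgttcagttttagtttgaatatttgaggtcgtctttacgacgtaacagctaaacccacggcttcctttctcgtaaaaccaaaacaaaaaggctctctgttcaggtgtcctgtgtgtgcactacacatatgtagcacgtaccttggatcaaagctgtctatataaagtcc
Havcr2: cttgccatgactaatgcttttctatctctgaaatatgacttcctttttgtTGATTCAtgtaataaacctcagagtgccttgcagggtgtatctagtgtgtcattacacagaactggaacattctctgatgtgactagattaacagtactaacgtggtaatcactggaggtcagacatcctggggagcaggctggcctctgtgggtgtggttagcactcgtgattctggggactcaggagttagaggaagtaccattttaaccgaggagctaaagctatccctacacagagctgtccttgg

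In both GAAANNGAA matches the letters read on the opposite strand, from position -76 to -68 relative to the start in Cd274 and from -166 to -158 in Ctla4. The AP-1 core of Havcr2 runs from -200 to -194. For Cd274 the start used is that of the promoter table, which is not the outermost one annotated for the gene. Both strands were searched in the 7 members with an entry, Cd274, Pdcd1lg2, Cd80, Pdcd1, Ctla4, Havcr2 and Tigit. GAAANNGAA was found in 2 of the 7, against 8.56% of 32851 promoters of the same length, and TGANTCA in 2 of the 7, Havcr2 and Cd80, against 7.81%. TTCNNNGAA, the core bound by STAT dimers, was found in 0 of the 7, against 8.30% of all promoters. The 4 matches lie in 4 different genes, so none overlaps another. A match is a string of letters and does not show that a factor binds there. Lag3, Cd28 and Icos have no promoter printed.

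The values of the 3 ligand genes overlapped between the host groups, whereas 4 of the 7 receptor genes had all 3 Stat2 KO tumours above all 3 WT tumours. Such groups were found in 8.23% of all genes, in 12.4% of genes in the level range of the 10 and in 21.4% of olfactory receptor genes. The olfactory receptor genes served as a rough gauge of signal without expression, and the share was 26.1% among those in the level range. Every difference below is a log2 value of Stat2 KO hosts less that of WT hosts, with the SE and Benjamini-Hochberg adjusted p of a limma fit over all 22180 genes. By that fit 0 of the 10 genes passed an adjusted p of 0.05, where 2 of 22180 genes did, 0.00902%. At an unadjusted p under 0.05 there were 2 of the 10, Cd28 and Ctla4, against 8.82% of all genes. Both were higher in Stat2 KO hosts, a direction in which 5.34% of all genes had such a p.

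**Figure D1:**
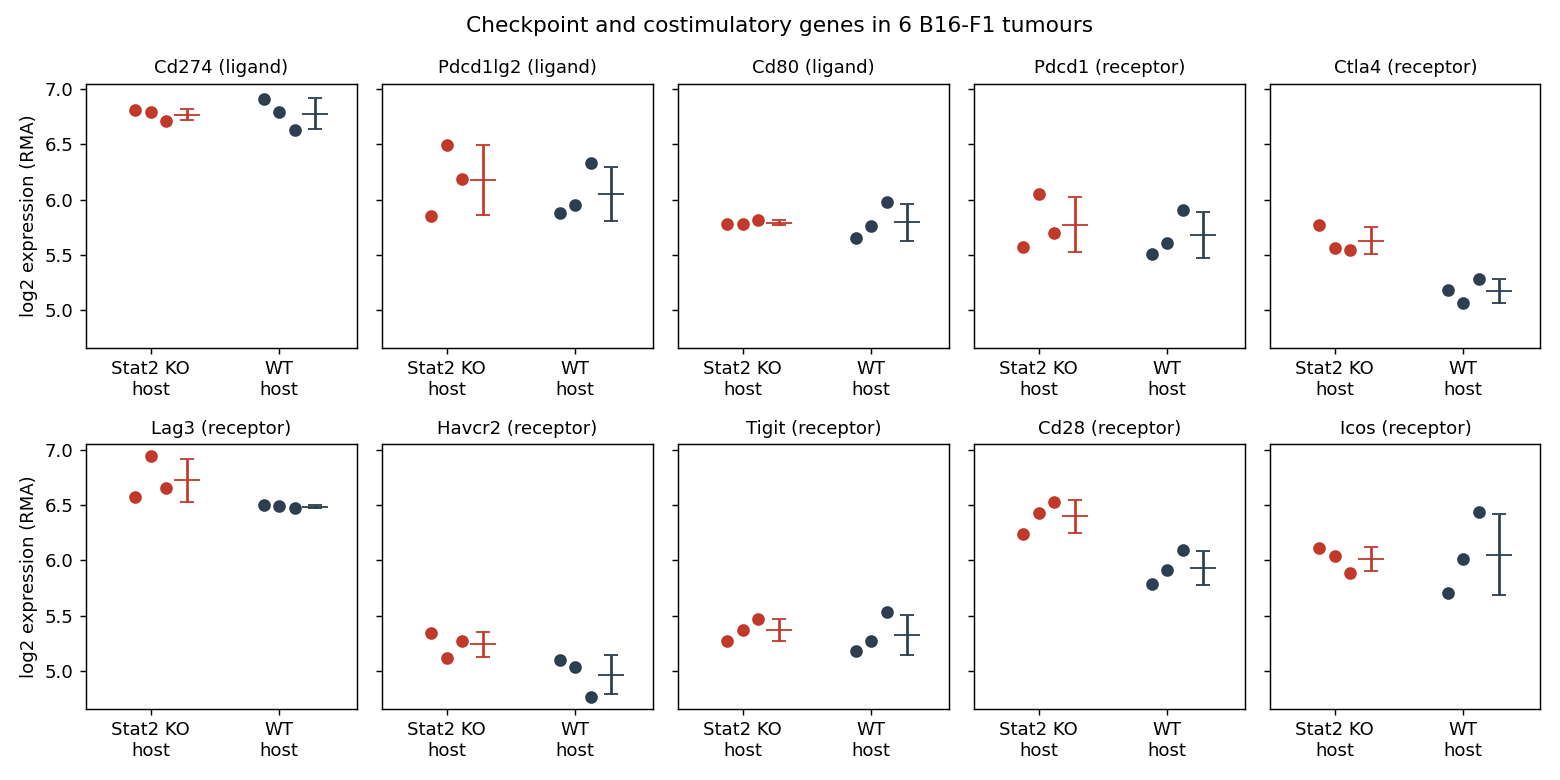
Log2 expression (RMA) of the 10 genes on the vertical axis in each tumour, those of Stat2 KO hosts left of WT hosts in every panel, with points in replicate order and bars for the mean ± SD (n = 3 each). Cd28 lies between 6.24 and 6.53 in Stat2 KO hosts, against 5.79 to 6.09 in WT hosts, while Cd274 lies between 6.71 and 6.81 in Stat2 KO hosts, against 6.63 to 6.91 in WT hosts.

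Cd274, which encodes PD-L1, read 6.81, 6.79 and 6.71 in tumours of Stat2 KO hosts, against 6.91, 6.79 and 6.63 in tumours of WT hosts. The groups overlapped, and all Stat2 KO values lay inside the WT range. Their means were 6.77 ± 0.0489 and 6.78 ± 0.138 (Stat2 KO and WT hosts, SD, n = 3 each), a difference of -0.0081 (SE 0.132, limma adjusted p = 0.986). The 95% interval of the difference ran from -0.29 to 0.28, or from 0.815-fold to 1.21-fold, so a larger difference in either direction lay outside it.

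Pdcd1lg2, which encodes PD-L2, the second PD-1 ligand, read 5.85, 6.49 and 6.19 in tumours of Stat2 KO hosts, against 5.88, 5.95 and 6.33 in tumours of WT hosts. Stat2 KO replicate 2 was the highest and Stat2 KO replicate 1 the lowest of the 6, so the groups overlapped over nearly their whole range. The difference was 0.13 (SE 0.182, limma adjusted p = 0.837), with an interval from -0.27 to 0.52. Without Stat2 KO replicate 2 it was -0.031.

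Cd80, the B7 ligand shared by CD28 and CTLA-4, read 5.78, 5.78 and 5.82 in tumours of Stat2 KO hosts, against 5.65, 5.76 and 5.98 in tumours of WT hosts. The Stat2 KO values again lay inside the WT range, and the difference was -0.0040 (SE 0.138, limma adjusted p = 0.992), with an interval from -0.30 to 0.30. The median of the 3 ligands was -0.0040, beside 0.021 over all genes.

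Cd28, the costimulatory receptor, read 6.24, 6.43 and 6.53 in tumours of Stat2 KO hosts, against 5.79, 5.91 and 6.09 in tumours of WT hosts. The lowest Stat2 KO value lay 0.143 above the highest WT value. The means were 6.40 ± 0.147 in Stat2 KO hosts, against 5.93 ± 0.153 in WT hosts (SD, n = 3 each). The difference was 0.46 (SE 0.142), or 1.38-fold. Its unadjusted limma p was 0.00661 and its adjusted p 0.470. The exact permutation p was 0.1, the smallest that 3 against 3 can give. The 95% interval ran from 0.16 to 0.77. With array weights Cd28 passed, at 0.55 (limma adjusted p = 0.0497, range 0.0497 to 0.908 over the alternatives). Under that setting 257 of 22180 genes passed, against 2 without weights.

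Ctla4, the inhibitory receptor for the same ligands, read 5.77, 5.56 and 5.55 in tumours of Stat2 KO hosts, against 5.18, 5.07 and 5.28 in tumours of WT hosts. These groups were 0.270 apart, the widest gap among the 10 genes. The means were 5.63 ± 0.125 in Stat2 KO hosts, against 5.18 ± 0.108 in WT hosts (SD, n = 3 each). The difference was 0.45 (SE 0.141), or 1.37-fold, with an interval from 0.15 to 0.76. Its unadjusted limma p was 0.00746 and its adjusted p 0.476. With array weights the limma adjusted p was 0.0709, within a range of 0.0709 to 0.908 over the alternatives.

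Icos, the third gene of this receptor family and the neighbour of Ctla4 and Cd28 on chromosome 1 in the RefSeq gene table, had overlapping groups. It read 6.11, 6.04 and 5.89 in tumours of Stat2 KO hosts, against 5.71, 6.01 and 6.44 in tumours of WT hosts. WT replicates 1 and 3 were the lowest and the highest of the 6, and the difference was -0.039 (SE 0.178, limma adjusted p = 0.952). Without WT replicate 3 it was 0.15.

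Pdcd1, which encodes PD-1, read 5.57, 6.05 and 5.70 in tumours of Stat2 KO hosts, against 5.51, 5.61 and 5.91 in tumours of WT hosts. The groups overlapped, with 1 of the 3 Stat2 KO tumours above the WT range. The difference was 0.095 (SE 0.166, limma adjusted p = 0.869), and without Stat2 KO replicate 2 it was -0.043.

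Lag3, an inhibitory receptor that binds MHC class II, read 6.57, 6.94 and 6.65 in tumours of Stat2 KO hosts, against 6.50, 6.49 and 6.47 in tumours of WT hosts. The 3 WT values were close together and all Stat2 KO values lay above them, by 0.0766 at the nearest. The difference was 0.24 (SE 0.139, limma adjusted p = 0.628), and 0.13 without Stat2 KO replicate 2.

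Havcr2, which encodes TIM-3, an inhibitory receptor of T cells and also of dendritic cells and macrophages, read 5.34, 5.12 and 5.27 in tumours of Stat2 KO hosts, against 5.10, 5.04 and 4.77 in tumours of WT hosts. The groups lay 0.0169 apart, and they overlapped after quantile normalization, cyclic loess or median centring. The difference was 0.27 (SE 0.152, limma adjusted p = 0.617), and 0.17 without WT replicate 3.

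Tigit, an inhibitory receptor of T and NK cells, read 5.27, 5.37 and 5.47 in tumours of Stat2 KO hosts, against 5.18, 5.27 and 5.53 in tumours of WT hosts. All Stat2 KO values lay inside the WT range. The difference was 0.044 (SE 0.148, limma adjusted p = 0.933), and it was below 0 under all 3 scaling alternatives.

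**Figure D2:**
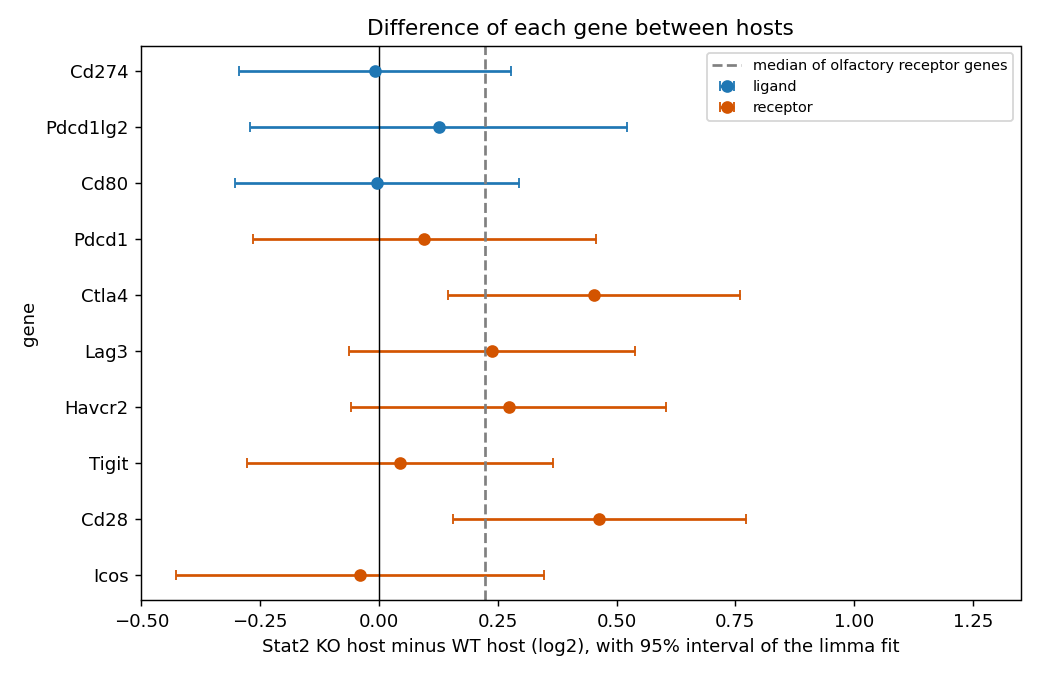
Difference between hosts for each gene on the horizontal axis (Stat2 KO host minus WT host, log2), with points for the limma estimate and bars for its 95% interval, ligands in blue and receptors in orange. The intervals of Ctla4 (0.15 to 0.76) and Cd28 (0.16 to 0.77) lie above 0, and the other 8 include 0. The dashed line marks 0.22, the median difference of olfactory receptor genes, which the intervals of Ctla4 and Cd28 also include.

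By role, 1 of the 3 ligands and 6 of the 7 receptors were higher in Stat2 KO hosts, with medians of -0.0040 and 0.24. In the same direction lay 54.0% of all genes, 71.7% of genes in the level range of the 10 and 91.6% of olfactory receptor genes in that range. After quantile normalization or median centring 5 of the 7 receptors were higher, and after cyclic loess 4 of 7. Of the 559 olfactory receptor genes in the level range 467, 464 and 449 were higher after these 3 scalings. The receptor median was 0.21, 0.16 and 0.18 after quantile normalization, median centring and cyclic loess. Groups did not overlap for 4 of the 10 genes, where 13.3% of all genes had such groups. All 4 were receptors with Stat2 KO above WT. Cd28, Ctla4 and Lag3 kept groups that did not overlap under each of the 3 scaling alternatives. All Stat2 KO values lay above WT in 6.62%, 5.97% and 4.92% of all genes after quantile normalization, cyclic loess and median centring. For olfactory receptor genes in the level range the shares were 18.4%, 15.2% and 18.4%.

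Dim genes as a class were also higher in Stat2 KO hosts, and the 10 genes read at a low level. Their means over the 6 arrays ran from 5.11 for Havcr2 to 6.77 for Cd274. Olfactory receptor genes were taken as a gauge of signal without expression, and had a median level of 5.21 with quartiles of 4.43 and 5.91. A probe set's level depends on its probes, so these levels place a gene only roughly. Of the 1105 olfactory receptor genes, 95.8% read below Cd274, 93.2% below Lag3 and 84.0% below Cd28. Only 56.3% read below Ctla4, 54.7% below Tigit and 45.2% below Havcr2, and Pdcd1lg2, Icos, Cd80 and Pdcd1 stood at 82.0%, 78.8%, 70.5% and 67.7%.

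The olfactory receptor genes had a median difference of 0.22, with 903 of 1105 higher in Stat2 KO hosts, beside the receptor median of 0.24. The 559 of them whose level fell within the range of the 10 genes had a median of 0.27. Among the 10775 genes of any kind in that level range the median difference was 0.098. A difference at least as large as that of Ctla4 was found in 189 olfactory receptor genes, 17.1%, and in 2.66% of all genes in the level range. Among the 559 olfactory receptor genes in that range it was found in 109, 19.5%. The median of the olfactory receptor genes was 0.18, 0.15 and 0.15 after quantile normalization, cyclic loess and median centring. How far this shift enters the receptor values was not tested.

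Each ligand was next set against its receptor within the same array, which asks whether the balance of the pair differed between hosts. Only the difference between hosts can be read from such values, since probe sets of unlike genes have unlike scales. Cd80 relative to Cd28 was -0.46, -0.65 and -0.71 in tumours of Stat2 KO hosts, against -0.14, -0.16 and -0.11 in tumours of WT hosts (log2 ratio). The groups did not overlap, and the ratio was lower in Stat2 KO hosts by a log2 difference of -0.47 (exact permutation p = 0.1, adjusted over the 4 pairs 0.2). Cd80 relative to Ctla4 was 0.01, 0.22 and 0.27 in tumours of Stat2 KO hosts, against 0.47, 0.69 and 0.70 in tumours of WT hosts. These groups did not overlap either, with a difference of -0.46 (exact permutation p = 0.1, adjusted 0.2). Cd80 itself differed by -0.0040, so both pair values restate the differences of Cd28 and Ctla4 and add no separate result. Since 3 against 3 cannot go below 0.1, no pair could pass 0.05.

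The groups of both PD-1 pairs overlapped. Cd274 relative to Pdcd1 was 1.24, 0.73 and 1.01 in tumours of Stat2 KO hosts, against 1.39, 1.18 and 0.72 in tumours of WT hosts, a difference of -0.10 (exact permutation p = 0.8, adjusted 0.8). Pdcd1lg2 relative to Pdcd1 was 0.28, 0.44 and 0.49 in tumours of Stat2 KO hosts, against 0.36, 0.34 and 0.42 in tumours of WT hosts, a difference of 0.030 (exact permutation p = 0.7, adjusted 0.8). The ratio of Ctla4 to Cd28, the inhibitory over the costimulatory receptor of CD80, was added after the values had been seen. It differed by -0.012 (exact permutation p = 0.9), with -0.46, -0.87 and -0.97 in tumours of Stat2 KO hosts, against -0.61, -0.85 and -0.81 in tumours of WT hosts, which overlapped.

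**Figure D3:**
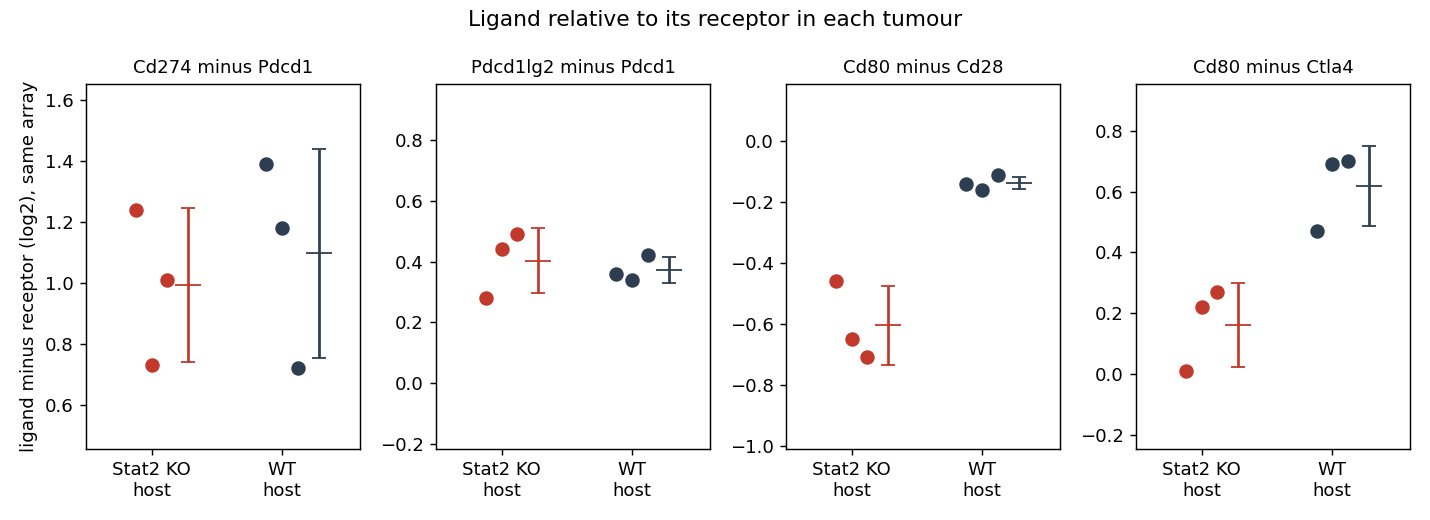
Ligand minus receptor on the same array (log2, vertical axis) for the 4 pairs, Stat2 KO hosts left of WT hosts, with points in replicate order, bars for the mean ± SD (n = 3 each) and an axis of equal length in every panel. Cd80 minus Cd28 averages -0.60 in Stat2 KO hosts, against -0.14 in WT hosts without overlap, and Cd80 minus Ctla4 averages 0.16 in Stat2 KO hosts, against 0.62 in WT hosts, while the PD-1 pairs overlap.

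T cell markers are given beside the receptors. As a background, 54.0% of all genes, 71.7% of genes in the level range and 81.7% of olfactory receptor genes were higher in Stat2 KO hosts. Of 12 markers 11 were measured, 9 of them higher and 2 lower, with a median of 0.089, 0 called and 3 below the median olfactory level. Their mean deviation was -0.064, 0.122 and 0.096 in tumours of Stat2 KO hosts, against -0.110, -0.026 and -0.018 in tumours of WT hosts, which overlapped, and their part in the receptor values was not tested. The scaffold receptor gene Cd6 differed by 0.24 and Cd3g, a chain of the T cell receptor complex, by 0.25 (limma adjusted p = 0.616 and 0.636). The median was 0.0034, -0.012 and 0.014 after quantile normalization, cyclic loess and median centring.

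Cd28 and Ctla4 stayed apart between hosts when the mean of the 11 T cell markers of the same array was subtracted, an adjustment chosen after the values had been seen. That mean was 5.86 in Stat2 KO hosts, against 5.75 in WT hosts, so the subtraction could lower each difference only slightly. Cd28 then differed by 0.36 and Ctla4 by 0.35, both without overlap (exact permutation p = 0.1 for each, the smallest possible and the same as before). Lag3 and Havcr2 then overlapped, with differences of 0.14 and 0.17 (exact permutation p = 0.2 and 0.5). Pdcd1, Tigit and Icos were at -0.0074, -0.058 and -0.14 (exact permutation p = 0.7, 0.7 and 0.6), so 4 of the 7 receptors remained on the higher side, with a median of 0.14.

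**Figure D4:**
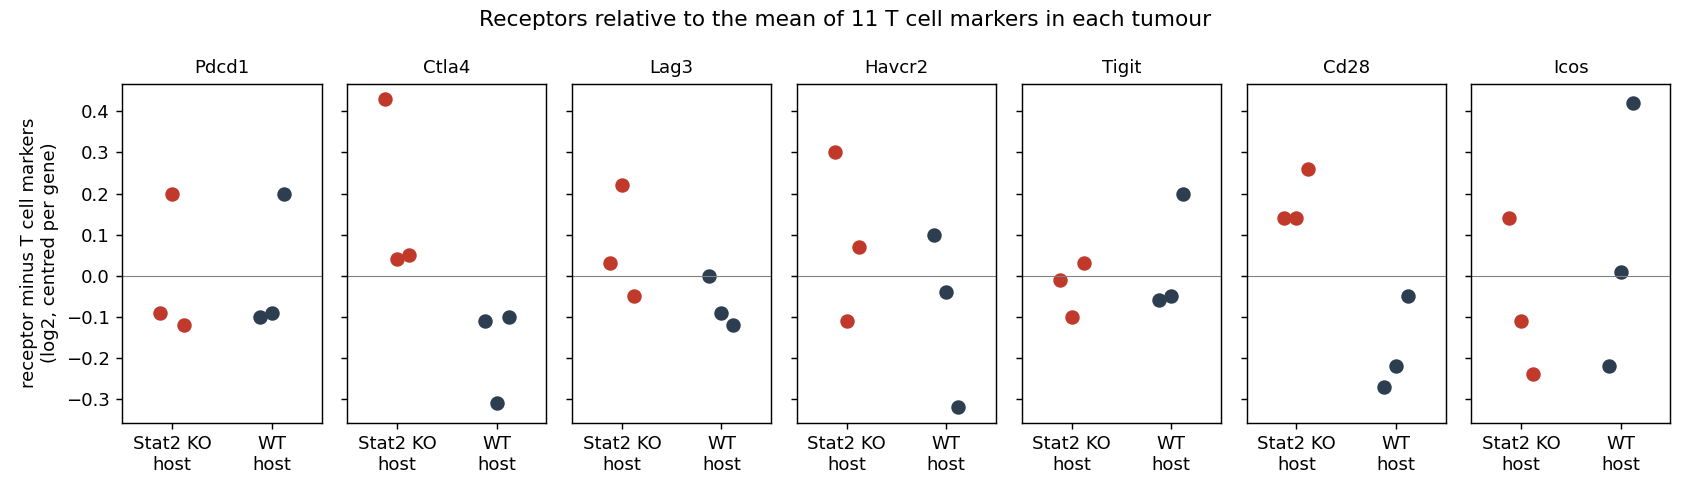
Each receptor minus the mean of 11 T cell markers on the same array (log2, centred on the gene's mean over 6 arrays, vertical axis), Stat2 KO hosts left of WT hosts, with 1 point per tumour in replicate order. Cd28 lies between 0.14 and 0.26 in Stat2 KO hosts, against -0.27 to -0.05 in WT hosts, and Icos spreads from -0.22 to 0.42 in WT hosts.

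The 10 genes did not share one order of tumours. WT replicate 3 was the highest WT tumour for 7 of the 10 genes, against 36.4% of all genes and 45.9% of genes in the same level range. WT replicate 1 was the lowest WT tumour for 6, against 37.0% of all genes and 46.5% in the level range. Among the Stat2 KO tumours replicate 1 was the lowest for 5 of the 10 genes, against 54.4% of genes in the level range, and the highest for 4, against 18.2%. Cd274, Lag3 and Havcr2 had the opposite order of these WT tumours, with replicate 1 highest and replicate 3 lowest.

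Genes whose values over the 6 arrays were most like those of a member were ranked by Pearson's r among 5359 genes brighter than the median gene and with a range of at least 0.5 log2 units. With 6 arrays such values arise readily among so many genes, and they are given as a description. For Cd274 they were Ptprm, Hfe, Insig1 and Cd59a (r from 0.956 to 0.968), for Pdcd1lg2 Mir680-2, Gip, Mir3473d and Mir5103 (0.975 to 0.988) and for Cd80 Zfp94, Atp5l, Myl9 and Nrp2 (0.950 to 0.978). For Cd28 they were Olfr430, P2ry1, Snora21 and Snora23 (0.983 to 0.997), for Ctla4 Tcaf2, Stard9, Olfr824 and H60b (0.967 to 0.980) and for Icos Smad7, Myl9, Zfp94 and Olfr1386 (0.941 to 0.983). For Lag3 they were Sema3g, Slc14a1, Gm17250 and Plekhb1 (0.984 to 0.994), for Pdcd1 Dmrtc2, Tmem88b, Lrrc46 and Gm7609 (0.984 to 0.989) and for Tigit 4930555G01Rik, Lce1h, Snord66 and Gm38418 (0.976 to 0.989). For Havcr2, which read below the median olfactory level and was added here after the values were seen, they were Olfr491, Mfsd8, Hsd17b7 and Ccng1 (0.958 to 0.990). Olfactory receptor genes stood among the 4 of Cd28, Ctla4, Icos and Havcr2.

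Further ligands of costimulatory or inhibitory receptors showed no common direction. Of 22 measured genes 12 were higher and 10 lower in Stat2 KO hosts, 0 were called and the median was 0.015. After median centring 6 were higher and 16 lower. Cd86, the second B7 ligand of CD28 and CTLA-4, named for that role and not by its p, read 4.69, 4.72 and 4.97 in tumours of Stat2 KO hosts, against 4.35, 4.80 and 4.48 in tumours of WT hosts, below the median olfactory level, with a difference of 0.24 (limma adjusted p = 0.681). Cd40, the receptor through which antigen-presenting cells are activated by T cell help, differed by 0.36 (limma adjusted p = 0.555). The B7 family gene Vtcn1 differed by 0.25, the butyrophilin genes Btn2a2 and Btnl2 by -0.29 and 0.23 (limma adjusted p = 0.607, 0.607 and 0.628).

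Further receptors of T and NK cells were higher in 15 of 20 genes, against 71.7% of genes in the level range of the 10 genes. The list median was 0.13, beside 0.098 in that level range, and 0 were called. After quantile normalization 12 were higher and after cyclic loess 10. Cd226, an activating receptor that shares its ligands with TIGIT, read 4.93, 4.88 and 4.98 in tumours of Stat2 KO hosts, against 4.28, 4.79 and 4.60 in tumours of WT hosts, all below the median olfactory level. It differed by 0.37 (limma adjusted p = 0.558). The costimulatory receptor gene Cd27 differed by 0.32 and Tnfrsf9, which encodes 4-1BB, by -0.34 (limma adjusted p = 0.562 and 0.588). Ceacam1, an adhesion receptor that other cells of a tumour carry as well, differed by -0.47 (limma adjusted p = 0.574).

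Signalling genes below these receptors were lower in 10 and higher in 7 of 17 measured members, with a median of -0.028 and 0 called. Sla2, an adaptor that dampens T cell receptor signalling, read 6.53, 6.86 and 6.73 in tumours of Stat2 KO hosts, against 6.28, 6.36 and 6.41 in tumours of WT hosts, without overlap (difference 0.35, limma adjusted p = 0.519). Pik3r1, the regulatory subunit of the kinase that CD28 recruits, differed by 0.21 and the kinase gene Prkcq by 0.23 (limma adjusted p = 0.646 and 0.652). Sh2d1a, an adaptor of SLAM receptors, differed by 0.22 (limma adjusted p = 0.698).

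Transcription factors of T cell activation and exhaustion split, with 7 higher and 8 lower of 15 measured, a median of -0.14 and 0 called. Irf4, induced by antigen receptor signals and also made in pigment cells, read 6.19, 6.21 and 5.83 in tumours of Stat2 KO hosts, against 7.07, 6.83 and 6.24 in tumours of WT hosts. The difference was -0.64 without overlap (limma adjusted p = 0.482). Id2, Bcl6 and Tbx21 differed by -0.86, -0.41 and 0.37 (limma adjusted p = 0.491, 0.497 and 0.538), and these genes are used by many cell types of a tumour.

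Genes known to act on PD-L1 expression or stability were mostly lower, beside a difference of -0.0081 for Cd274 itself. On the lower side were 12 of the 13 measured, on the higher side 1, the median was -0.19 and 0 were called. Ifngr1, a chain of the interferon gamma receptor, read 8.21, 8.05 and 7.86 in tumours of Stat2 KO hosts, against 8.48, 8.55 and 8.27 in tumours of WT hosts, without overlap (difference -0.39, SE 0.145, limma adjusted p = 0.509). The 1 higher member was Cmtm6, which protects PD-L1 from degradation, with 7.81, 7.79 and 7.74 in tumours of Stat2 KO hosts, against 7.50, 7.50 and 7.64 in tumours of WT hosts, also without overlap (difference 0.24, limma adjusted p = 0.615). Jak1 and Myc differed by -0.24 and -0.25 (limma adjusted p = 0.651 and 0.655).

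**Figure D5:**
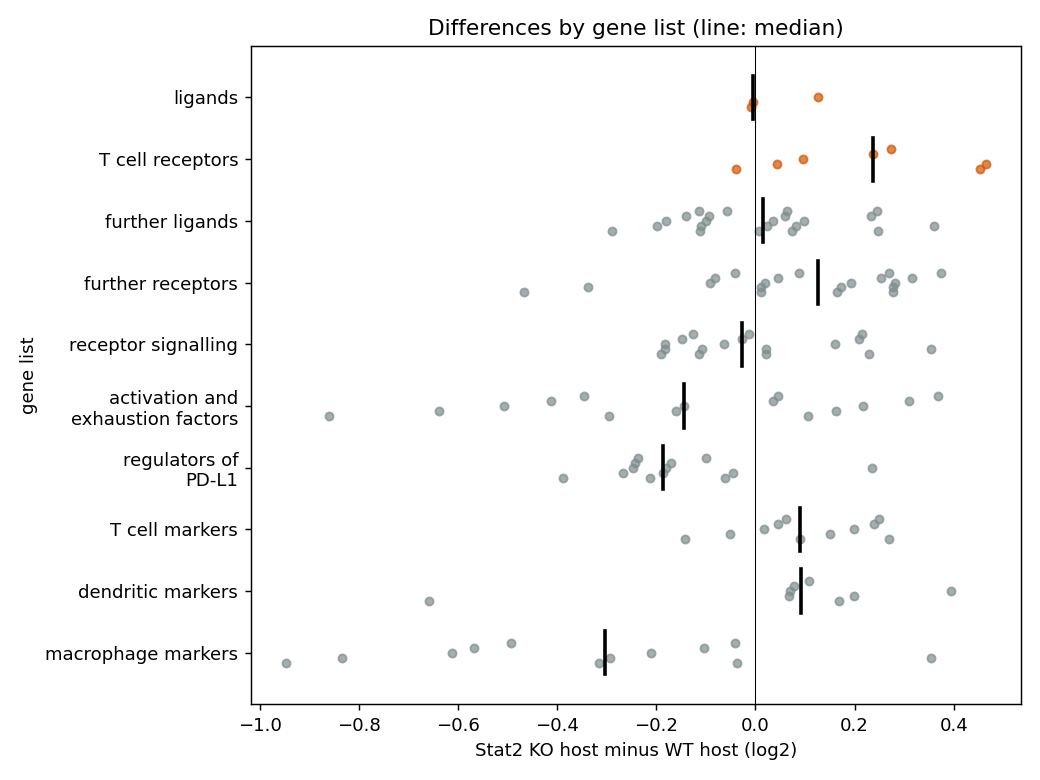
Difference between hosts (Stat2 KO host minus WT host, log2, horizontal axis) of every measured gene in 10 lists, 1 point per gene, with a black line at each list's median. The T cell receptors centre on 0.24 and the ligands on -0.0040, regulators of PD-L1 on -0.19 and macrophage markers on -0.30.

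Markers of the cells that carry the ligands are given beside them. Of 12 macrophage markers 11 were lower in Stat2 KO hosts, where 10192 of all 22180 genes were lower. Their median was -0.30, with 0 called and 1 below the median olfactory level. Their mean deviation was -0.269, -0.186 and -0.057 in tumours of Stat2 KO hosts, against 0.220, 0.267 and 0.026 in tumours of WT hosts, without overlap. C1qb, a complement chain made by macrophages, differed by -0.95 and Ms4a7 by -0.83 (limma adjusted p = 0.195 and 0.351). Dendritic cell markers were higher in 7 of 8 measured members with a median of 0.093 and 0 called, while Fscn1, an actin-bundling protein of mature dendritic cells that tumour cells can also make, differed by -0.66 (limma adjusted p = 0.460). Melanocyte markers were bright, at a mean of 11.4 in Stat2 KO hosts, against 11.5 in WT hosts, with a median difference of -0.076 over 7 genes and 0 called. The part of each cell type in the ligand values was not tested.

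Facts of the whole data set are brief. Median log2 values of the arrays were 6.08 to 6.22 in Stat2 KO hosts, against 6.06 to 6.13 in WT hosts, and 0 pairs of arrays held identical values. Stat2 averaged 6.42 ± 0.0773 in Stat2 KO hosts, against 6.73 ± 0.0528 in WT hosts (SD, n = 3 each), a difference of -0.31 (limma adjusted p = 0.532), and which part of Stat2 its probe set reads was not looked up here. The number of arrays limits the precision, and no detection calls were used here.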

How the data were processed

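The authors deposited log2 values for each probe set on each array. The submitters' processing notes name Affymetrix Expression Console 1.3.1 and RMA as their tools. Of 41345 probe sets 23521 named 1 gene, 1814 several and 16010 none in the platform annotation. Each gene was taken from its brightest probe set over the 6 arrays among those naming it alone, without a filter on dim probe sets, which gave 22180 genes. Some genes of the lists were not analysed here, and counts are over the members measured.

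Differences, Stat2 KO minus WT host, came from limma 3.58.1 in R 4.3.3 (lmFit, eBayes with intensity trend, two-sided, Benjamini-Hochberg over all genes), with 4 residual and 8.14 prior degrees of freedom. Single values also had an exact two-sided permutation test of the 6 arrays. The fit was tested on simulated data with independent genes, changes larger than any among the 10 genes and no shift of dim genes. That test therefore says nothing on differences of the size seen here. The 10 genes, the gene lists and the tests were chosen with earlier results of these data known. All 10 genes and up to 4 genes per list with the smallest p are named, while Cd86 was named for its role after its values were seen. Foxp3 was likewise named for its role and not by its p, and Kdr as the highest difference of its list. Same-numbered tumours of the 2 groups had deviations that correlated at 0.24, 0.079 and 0.030 across genes, so the numbers were not taken as pairs. Alternatives were a replicate block, quantile, cyclic loess and median scaling, a filter on dim genes, the mean of all probe sets, other eBayes settings, array weights and each array left out.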

Additional observations from a re-analysis of the deposited data

How the results depend on the processing

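The differences of Ctla4, Lag3, Havcr2 and Cd28 kept their sign under every alternative that could be run for them. Since their groups did not overlap, leaving out or weighting arrays could not turn these signs. The block, the other eBayes settings, the filter and the mean of probe sets left the difference itself unchanged. Only the scaling alternatives and the subtraction of T cell markers could have turned it. The marker mean itself differed little, at 5.86 in Stat2 KO hosts, against 5.75 in WT hosts. Cd28 passed the adjusted threshold with array weights, at 0.55, a setting in which 257 genes passed, against 2 without weights. Near 0, signs turned. Tigit was at -0.035 after quantile normalization, -0.056 after cyclic loess, -0.030 after median centring and -0.058 relative to T cell markers. Pdcd1 was at -0.0087 after cyclic loess and -0.0074 relative to T cell markers, and Cd80 at 0.033 with array weights. The cause of these turns was not tested.

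With each replicate left out, differences ranged from -0.080 to 0.057 for Cd274, -0.031 to 0.29 for Pdcd1lg2, -0.077 to 0.088 for Cd80, -0.043 to 0.21 for Pdcd1, -0.029 to 0.15 for Tigit and -0.21 to 0.15 for Icos. The pairs ranged from -0.29 to 0.045 for Cd274 minus Pdcd1, -0.012 to 0.091 for Pdcd1lg2 minus Pdcd1 and -0.16 to 0.091 for Ctla4 minus Cd28. Medians ranged from 0.13 to 0.26 for the 7 receptors, -0.046 to 0.031 for further ligands, 0.081 to 0.23 for further receptors and -0.22 to -0.046 for exhaustion regulators. Genes with an adjusted p under 0.05 numbered 0 to 17, and genes with an unadjusted p under 0.05 numbered 1177 to 3260.

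Medians of further ligands were -0.025, -0.039 and -0.060 after quantile normalization, cyclic loess and median centring. The median of further receptors was 0.026 after cyclic loess. The signalling genes were at -0.082 after cyclic loess and -0.10 after median centring. Regulators of PD-L1 were at -0.16, -0.15 and -0.26 after quantile normalization, cyclic loess and median centring. Median centring also moved the median of all genes to -0.054. Genes with an adjusted p under 0.05 numbered 0 after quantile normalization, 0 after cyclic loess, 1 without the intensity trend and 257 with array weights, where 1 pathway gene, Irf4, was among them. Genes with an unadjusted p under 0.05 numbered 5004 with array weights. Among genes brighter than the median gene alone they numbered 938, with 0 of the 10 genes, and groups did not overlap for 1308 genes and 1 of the 10, since only Cd274 and Lag3 were bright enough to be tested. With the replicate number as a block the limma adjusted p was 0.264 for Cd28, with its difference at 0.46, and 0.315 for Ctla4, at 0.45, and no call among the 10 genes changed.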

Other observations

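Markers of regulatory T cells, which carry CTLA-4, ICOS and TIGIT, were higher in Stat2 KO hosts in 2 of 5 genes, with a median of -0.0036 and 0 called. Foxp3, their defining transcription factor, read 5.87, 6.12 and 6.38 in tumours of Stat2 KO hosts, against 6.05, 6.24 and 6.11 in tumours of WT hosts, a difference of -0.012 (limma adjusted p = 0.984). Ccr8, a chemokine receptor of regulatory T cells in tumours, read 5.55, 5.28 and 5.62 in tumours of Stat2 KO hosts, against 5.00, 5.25 and 5.11 in tumours of WT hosts, without overlap (difference 0.36, limma adjusted p = 0.538). NK cell markers were higher in 3 of 4 and B cell markers in 4 of 5 measured members, against 71.7% of genes in the level range. The marker medians were 0.12 and 0.10, with 0 called in each. Klrd1, a lectin-like receptor chain of NK cells, differed by 0.25 and the B cell antigen gene Ms4a1 by 0.25 (limma adjusted p = 0.653 and 0.623). After cyclic loess 2 of 4 NK and 3 of 5 B cell markers were higher.

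Fibroblast markers were lower in Stat2 KO hosts in 6 of 7 genes with a median of -0.41 and 0 called, led by Dcn at -0.94 (limma adjusted p = 0.351). Endothelial markers were higher in 2 and lower in 3 of 5 genes, with a median of -0.028 and 0 called. Their differences ran from -0.45 for the cadherin gene Cdh5 (limma adjusted p = 0.552) to 0.15 for Kdr, a receptor of vascular endothelial growth factor.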
